A study of Mus musculus with 15 samples.

Results

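The kidney library of a panel of mouse tissues was compared with the 11 other adult libraries of that panel. It is 1 of 15 libraries of small RNA, and was chosen by its label. The others were labelled brain, eye, heart, liver, lung, salivary gland, smooth muscle, spinal cord, spleen, stomach and testis. By their titles, 3 further libraries came from whole embryos of 11, 15 and 17 days. All RNA came from a commercial panel of mouse total RNA, with no treatment, and the labels give no strain, age, sex or number of animals. Libraries were made by AQ-seq, in which adapters with randomized ends are ligated to size-selected RNA to lower the bias of ligation, and the series is titled for the switch between the arms of a miRNA hairpin. The question here was which mature miRNAs, and which hairpin arms, set kidney apart from other adult organs.

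A miRNA is cut from a hairpin whose 5p arm, 3p arm or both give a mature strand, and bases 2 to 8 of that strand, the seed, set most of its pairing with target mRNAs. The kidney is a mixture of tubule epithelium, glomeruli, vessels, stroma and blood, and its tubules form from intermediate mesoderm of the trunk under the control of Hox genes, whose clusters also hold miRNA hairpins. The miR-192 and miR-194 hairpins are known from kidney, liver and gut epithelium, the miR-200 family holds down the mesenchymal factors Zeb1 and Zeb2 in epithelia, and the miR-30 family is abundant in the nephron. In a bulk library, fewer cells of a type and less RNA per cell cannot be told apart.

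The kidney file held 1437478 reads of 829 mature names, and the other adult files held 148052 (testis) to 3161463 (brain). Levels are CPM, the count of a name in every 1000000 reads of its file, so that each is a share of all miRNA reads: 1 read stood for 0.70 CPM in kidney, and 3 reads, taken as the limit that a count of 0 allows, for 2.09 CPM in kidney and 20.3 CPM in testis. Of 1492 names with a read in an adult library, 507 had a mean of at least 20 CPM over the 12, and these held 99.8% of kidney reads. There is 1 library per tissue, so no difference below has a replicate check. A permutation of 1 library among 12 could not give an exact p below 0.083, and none is given. Intervals are exact 95% intervals for counting error only, since reads copied by PCR are not independent molecules. The library labelled smooth muscle held the smooth muscle miRNAs miR-143-3p and miR-145a-5p at 15.4% of its reads, second to stomach. It was led, however, by miR-194-5p (14.8%) and held 96410 CPM of miR-215-5p, both known from gut epithelium. Which tissue these reads came from was not tested. Ratios to the median that this library moves by over 1.5 times are given with and without it. The 4 kidney markers were given with the choice of this library, so they are no independent check of its label. miR-30c-5p and miR-10a-5p were higher in kidney than in any other adult library. miR-192-5p and miR-194-5p were far above the median of the others, but below smooth muscle and liver.

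The leading kidney miRNAs are shown first, since close relatives among them differ by few bases and the results turn on which relative the reads carry. Mature sequences are those of RefSeq for GRCm38.p6, which matched 434 of the 507 names, written 5′ to 3′ with the seed in capitals. The first 5 lie in Hox clusters. miR-10a-5p and miR-10b-5p share a seed and differ by U12A, and miR-196a-5p and miR-196b-5p share another and differ by A12C, with positions counted from 1 at the 5′ end and the base of the first-named miRNA written first.
miR-10a-5p: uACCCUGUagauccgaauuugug
miR-10b-5p: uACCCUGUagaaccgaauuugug
miR-196a-5p: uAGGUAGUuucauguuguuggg
miR-196b-5p: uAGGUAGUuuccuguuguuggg
miR-615-3p: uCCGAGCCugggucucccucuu

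The next set shows the paired miR-192, miR-194 and miR-215 hairpins. miR-192-5p and miR-215-5p share a seed and differ by C1A, A12U and C20A. Their partner miR-194-5p is cut with the same sequence from both of its hairpins, and only the 3p strands, which differ by A8G, C19U, U20C and C22G, tell the hairpins apart.
miR-192-5p: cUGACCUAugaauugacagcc
miR-215-5p: aUGACCUAugauuugacagac
miR-194-5p: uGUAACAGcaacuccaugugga
miR-194-1-3p: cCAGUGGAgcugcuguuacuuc
miR-194-2-3p: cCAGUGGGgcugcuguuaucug

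The last set shows the miR-30 strands that could be matched, the miR-200 family with its 2 seeds, and further names that were high in kidney. The seed of the miR-30 5p strands is the same in all those shown, while miR-200a-3p with miR-141-3p and miR-200b-3p with miR-200c-3p and miR-429-3p form 2 seed groups.
miR-30a-5p: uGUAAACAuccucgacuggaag
miR-30c-5p: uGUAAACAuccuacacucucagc
miR-30e-5p: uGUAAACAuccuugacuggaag
miR-200a-3p: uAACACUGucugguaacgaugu
miR-141-3p: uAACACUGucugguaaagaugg
miR-200b-3p: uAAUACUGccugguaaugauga
miR-200c-3p: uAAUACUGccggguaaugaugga
miR-429-3p: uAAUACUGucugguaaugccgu
miR-190a-5p: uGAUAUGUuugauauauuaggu
miR-107-3p: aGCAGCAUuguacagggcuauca
miR-103-3p: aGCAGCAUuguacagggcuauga

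The most abundant kidney miRNA was miR-30c-5p, with 79113 CPM or 7.91% of reads. It was followed by miR-26a-5p, a widely expressed miRNA (53941 CPM), the red cell miR-451a (50383), let-7c-5p (37574), let-7b-5p (31592), miR-21a-5p (29562), the endothelial miR-126a-3p (26734), let-7a-5p (25813), let-7f-5p (25358) and miR-29a-3p (25061). These 10 names held 38.5% of kidney reads, against 59.97% for the 10 leading names of liver and 27.9% for those of testis. Most are shared by many tissues, and miR-26a-5p, miR-21a-5p and miR-29a-3p were at 1.36, 0.80 and 0.95 times the median of the others.

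Kidney was at least 2-fold above the highest other adult library for 8 of the 507 names (1.58%). These were miR-196b-5p (4.74-fold), miR-10a-3p (3.75), miR-190a-5p (3.68), miR-196a-5p (3.31), miR-10a-5p (3.26), miR-101c (3.19), miR-30c-5p (2.67) and miR-187-3p (2.14). Hairpins in Hox clusters gave 4 of the 8, but miR-10a-5p and miR-10a-3p are arms of 1 hairpin. Of the 5 Hox cluster strands shown above, 3 reached this fold, against 1.58% of all names. The highest names short of this fold were miR-30c-2-3p (1.72) and miR-107-3p (1.71). Kidney was at least 4-fold above the median of the others for 40 names (7.89%) and at least 4-fold below it for 44 (8.68%). It was the highest library for 12 of the 40 (against 6.71% of all names) and among the 3 highest for 29. Where another library was higher, this was most often smooth muscle (8 names) or spinal cord (5). The 40 were picked by a high kidney ratio, which itself favours a high rank, so these ranks only describe them. The names nearest to the fold of 4 were miR-221-3p (4.06) and miR-322-3p (4.14) inside and miR-551b-3p (3.91) and miR-351-5p (3.78) outside, and below the median miR-376a-3p (4.07) and miR-384-3p (4.16) inside and miR-379-5p (3.996) and miR-342-3p (3.93) outside.

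The split of these calls depended on the scale. Over the 507 names the median ratio of kidney to the median of the others was 0.906, or -0.14 on the log2 scale. Scaling by TMM moved it by a further -0.33 and gave 31 names above and 63 below, so that 33.0% of the calls were above in place of 47.6%. DESeq2 size factors moved it by -0.26 and gave 33 above and 58 below. Under both, 7 of the 8 names at least 2-fold above the highest other library remained. The exception was miR-30c-5p, whose ratio to the highest other library, heart, fell to 1.30 under TMM and 1.34 under DESeq2 size factors.

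**Figure D1:**
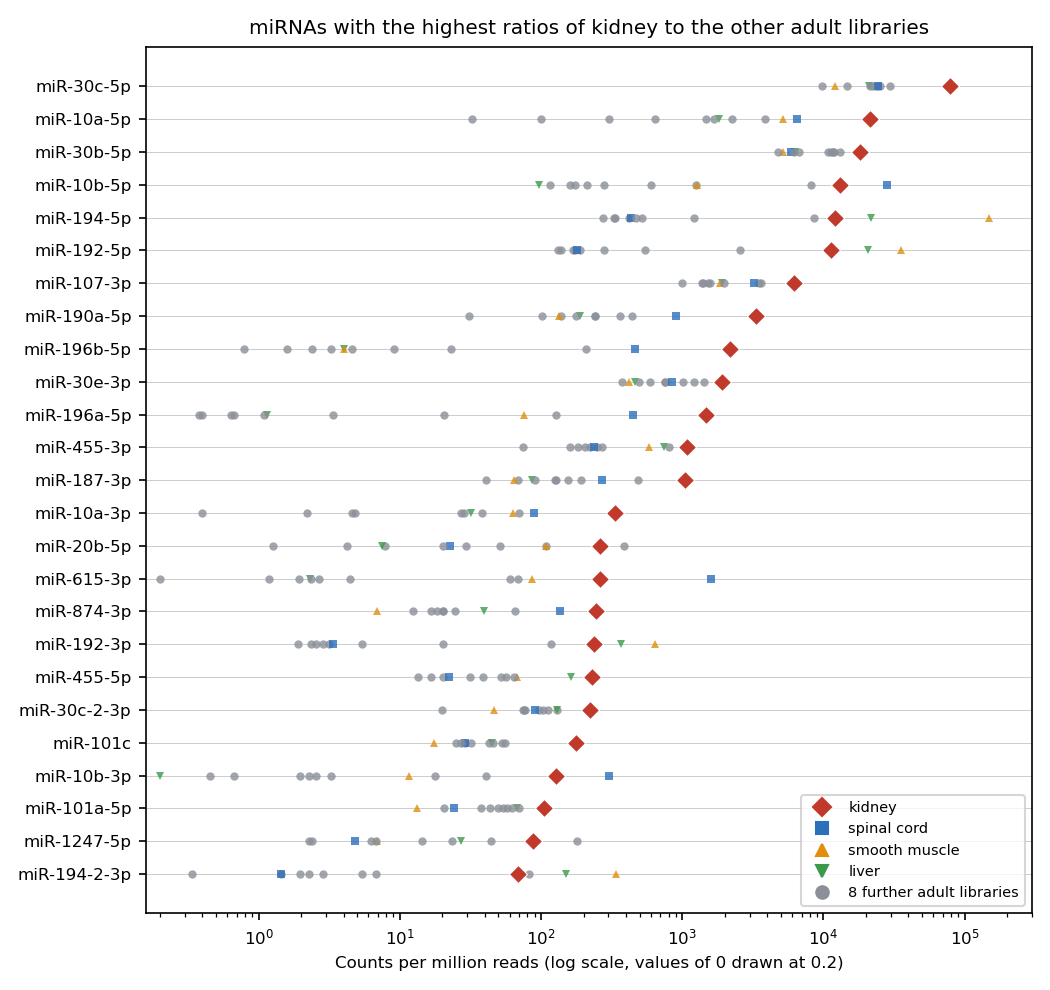
Levels of the miRNAs with the highest kidney ratios, in CPM on a log axis, with 0 drawn at 0.2. Each row is a mature miRNA, red diamonds are kidney, marked symbols are the spinal cord, smooth muscle and liver libraries, and grey points are the 8 further adult libraries. miR-196a-5p and miR-196b-5p reach 1480 and 2191 CPM in kidney, with spinal cord next at 448 and 462.

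The miRNAs of the Hox clusters stood highest relative to other organs. Together the 5 names made up 3.84% of kidney reads, against 3.74% in spinal cord, a median of 0.192% and 0.0195% in eye. Testis, next after spinal cord, had 10003 CPM of them against 38441 in kidney. All 5 were at least 4-fold above the median of the others (7.89% of all names), the lowest by 12.7-fold (miR-10a-5p). The median ratio of the 5 was 97.4, against 0.906 for all names tested, and is that of miR-615-3p, which was low in most others. This list, like those below, was chosen with earlier results of these data known, so such counts describe it and test nothing. Under TMM and DESeq2 size factors the 5 calls remained. Kidney was the highest adult library for miR-10a-5p, miR-196a-5p and miR-196b-5p, while spinal cord led for miR-10b-5p and miR-615-3p.

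miR-10a-5p, which lies in the HoxB cluster and is known to act on Hox and other developmental mRNAs, had 21359 CPM in kidney. In the others it ran from 32.3 CPM in eye through a median of 1685 to 6548 in spinal cord, so that kidney was above all 11, by 12.7-fold over the median and 3.26-fold over spinal cord (interval 3.20 to 3.33). Its 3p strand, miR-10a-3p, had 332 CPM in kidney and 88.5 in spinal cord, a ratio of 3.75 (3.15 to 4.47). Kidney led and spinal cord was next for both arms, followed by smooth muscle for the 5p strand and lung for the 3p strand. The hairpin lies at chr11:96317165-96317274 on the plus strand of GRCm38, between genes, with Hoxb4 993 bases away and Hoxb3 6052 bases away.

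miR-10b-5p, its relative in the HoxD cluster, had 13148 CPM in kidney. The others ran from 96.2 CPM in liver through a median of 280 to 28388 in spinal cord, and testis had 8132. Kidney was second, at 0.46 times spinal cord. It was 46.98-fold above the median, 22.9-fold under TMM and 23.6-fold under DESeq2 size factors. The hairpin lies at chr2:74726070-74726137 on the plus strand, in introns of Hoxd3 and Hoxd4. miR-10a-5p made up 61.9% of the reads of this pair in kidney (61.5 to 62.3), within the range of the others, from 15.3% in testis to 94.97% in liver. Spinal cord (18.7%) drew mostly on miR-10b-5p. The strands differ by 1 base, so the split rests on correct calls at that base.

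miR-196a-5p and miR-196b-5p, which are known to cut Hox mRNAs such as Hoxb8, had high levels in few adult libraries. miR-196a-5p had 1480 CPM in kidney (2128 reads), 448 in spinal cord, 128 in testis and 75.2 in smooth muscle, and brain, eye, heart, liver, lung and stomach had 1 or 2 reads each, so no fold over the median is given. miR-196b-5p had 2191 CPM in kidney (3149 reads), 462 in spinal cord, 209 in testis and 22.9 in spleen, with a median of 4.05. Kidney was 3.31-fold (3.06 to 3.58) and 4.74-fold (4.41 to 5.10) above spinal cord. Without spinal cord, an alternative chosen after seeing the data, kidney was 11.5-fold and 10.5-fold above the next library.

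miR-196a-5p is cut from a pair of hairpins, which only the 3p strands tell apart. In kidney, miR-196a-2-3p had 50 reads and miR-196a-1-3p had 14, so that 78.1% of these 3p reads (66.0 to 87.5) came from Mir196a-2; these 3p strands were chosen after their values were seen. Mir196a-2 lies at chr15:102973350-102973434 in an intron of Hoxc5, 1457 bases from Hoxc10. Mir196a-1 lies at chr11:96265164-96265265 between genes of the HoxB cluster, 6192 bases from Hoxb9. Mir196b lies at chr6:52230081-52230165 on the minus strand, in an exon of an annotated Hoxa9 transcript.

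miR-615-3p, from an intron of Hoxc5 in the HoxC cluster, had 263 CPM in kidney and 1603 in spinal cord. The next libraries were smooth muscle with 85.6 CPM and stomach with 68.3, the median was 2.70, and heart had no read. Kidney was 97.4-fold above the median. The same 5 names were also high in whole embryos, where 11-, 15- and 17-day libraries had 1752, 1119 and 374 CPM of miR-196a-5p and 2860, 1457 and 1010 CPM of miR-196b-5p. With the embryos among the others, kidney was at 0.84 and 0.77 times the highest library for these 2 names, and remained above every library for miR-10a-5p.

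The second group was the miR-192 and miR-194 hairpins. miR-192-5p, a p53-linked miRNA of renal and gut epithelium, had 11396 CPM in kidney (16381 reads). It had 35277 CPM in smooth muscle, 20587 in liver and 2555 in stomach, and the median of the others was 190, with 132 in lung as the lowest. miR-194-5p had 12006 CPM in kidney, 147721 in smooth muscle, 21562 in liver and 8638 in stomach, with a median of 469 and 273 in lung. Kidney ranked 3 of 12 for both, 59.9-fold and 25.6-fold above the median. The fold of miR-192-5p was 36.1 under TMM, 34.7 under DESeq2 size factors and 27.6 without brain, spinal cord and eye, where that of miR-194-5p was 14.4. Without the smooth muscle library kidney was second to liver, at 0.55 and 0.56 times its level. The remaining 8 libraries were each below stomach for both names.

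The 3p strands gave the same picture, and they tell which hairpins the reads came from. miR-192-3p had 237 CPM in kidney, 70.4-fold above the median, and 371 in liver. miR-194-2-3p had 98 reads in kidney (68.2 CPM, 24.0-fold above the median), whereas miR-194-1-3p had 0 reads, which allows up to 2.09 CPM. Liver had 263 reads of miR-194-2-3p and 1 of miR-194-1-3p, stomach 76 and 79, and smooth muscle 589 and 2766. Kidney and liver reads therefore carried the 3p strand of Mir194-2, and the smooth muscle and stomach reads carried both. The miR-194-1-3p name was chosen after its values were seen.

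The hairpins pair by position in the genome. Mir192 (chr19:6264844-6264932) and Mir194-2 (chr19:6264643-6264728) lie 115 bases apart on the plus strand, in no annotated gene, with Atg2a 2308 bases from Mir194-2. Mir215 (chr1:185313581-185313692) and Mir194-1 (chr1:185313319-185313385) lie 195 bases apart on the plus strand, within an intron of Iars2 on its opposite strand. miR-215-5p, which shares its seed with miR-192-5p, had 7 reads in kidney, or 4.87 CPM. The others ran from 1.90 CPM in brain through a median of 34.6 to 1427 in stomach and 96410 in smooth muscle, so that the median of the others was 7.11-fold above kidney. It was 4.35-fold above kidney without smooth muscle, and likewise without testis or spinal cord. miR-215-3p had 0 reads in kidney, also chosen after its value was seen.

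As a share of the reads of the 2 names, miR-192-5p made up 99.96% in kidney (99.91 to 99.98, 16388 reads) and 99.97% in liver. The others ran down to 64.2% in stomach and 26.8% in smooth muscle, with a median of 88.9%. Kidney had more miR-192-5p than 9 of the 11 other libraries, and less miR-215-5p than 8 of them. Nearly all kidney reads with this seed were therefore miR-192-5p.

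**Figure D2:**
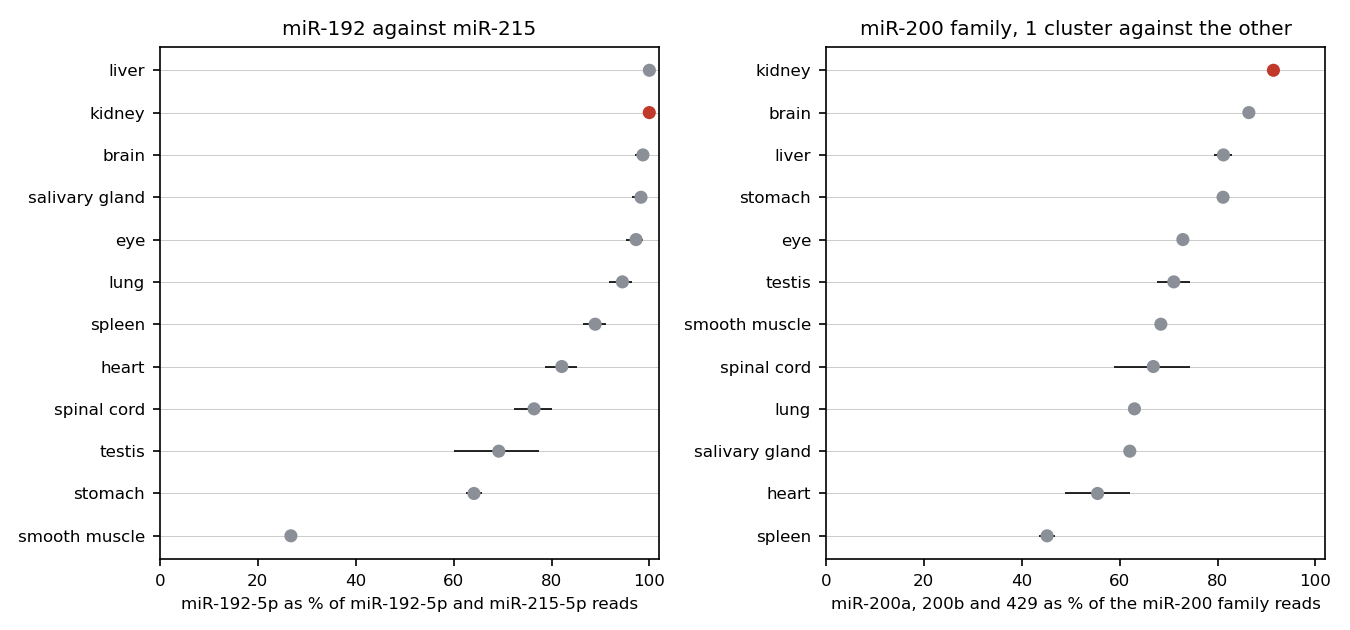
Shares of reads between related hairpins in each adult library, with kidney in red and the 11 others in grey, and bars for 95% Clopper-Pearson intervals (counting error only). The left panel gives miR-192-5p as a percent of miR-192-5p and miR-215-5p reads, and the right panel miR-200a-3p, miR-200b-3p and miR-429-3p as a percent of the miR-200 family. Kidney stands at 99.96% on the left, beside liver, and at 91.4% on the right, above all others.

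The miR-30 family was above the median of the others as a whole, by less than 4-fold for each name. Its 5p strands, which share a seed and are known to be needed for podocytes and for nephron development, made up 15.7% of kidney reads, against 3.16% in smooth muscle, a median of 5.73% and 9.28% in lung. Kidney was above the median of the others for 8 of 8 names (against 47.9% of all names), with a median ratio of 2.60 against 0.906. It was the highest library for 5 of them. Under TMM kidney was above the median for 7 of 8, was the highest for 1, and ranked 2 of 12 for the summed family. Under DESeq2 size factors it was above the median for 8 of 8, the highest for 1 and again ranked 2.

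Within the family, miR-30c-5p stood out. It had 79113 CPM in kidney, while the others ran from 9787 in spleen through a median of 22326 to 29586 in heart, so that kidney was 3.54-fold above the median and 2.67-fold above heart. The other 5p strands were above the median by less: miR-30e-5p at 22048 CPM by 3.04-fold, miR-30b-5p at 18295 CPM by 2.72-fold, miR-30a-5p at 24540 CPM by 2.52-fold and miR-30d-5p at 13321 CPM by 1.58-fold. For miR-30a-5p lung was higher, at 32051 CPM, and for miR-30d-5p lung, eye and heart were. miR-30e-5p in kidney was close to salivary gland, with 20805 CPM. miR-30c-5p was 50.3% of the miR-30 5p reads in kidney, and 50.6% in spinal cord, where the family as a whole was lower, against 25.2% in spleen and a median of 36.5%.

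miR-30c-5p is cut from a pair of hairpins, each beside another member. Mir30c-2 (chr1:23291701-23291784, in an exon of the long noncoding RNA Gm27028) lies 19361 bases from Mir30a, and Mir30c-1 (chr4:120769534-120769622, in an intron of Nfyc) lies 2983 bases from Mir30e. Their 3p strands differ by G9A, U12C and C22U. miR-30c-2-3p had 223 CPM in kidney and 130 in liver, the highest of the others, and miR-30c-1-3p had 66.1 CPM in kidney and 53.8 in heart. In kidney 77.2% of these 3p reads (72.8 to 81.1, 416 reads) came from Mir30c-2, within the range of the others (59.5% to 90.9%). Of the other 3p strands, miR-30a-3p had 2303 CPM in kidney and 1879 in lung, and miR-30e-3p had 1925 in kidney and 1428 in heart. Under TMM kidney was below the highest other library for all 4 of these 3p strands: miR-30c-2-3p (0.84), miR-30c-1-3p (0.60), miR-30a-3p (0.81) and miR-30e-3p (0.66).

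The miR-200 family, of epithelial cells, differed by cluster. miR-200a-3p had 11536 CPM in kidney (8.61-fold above the median), miR-200b-3p 9153 (6.74-fold) and miR-429-3p 3544 (5.25-fold), and their hairpins lie together on the minus strand of chromosome 4, in introns of Ttll10 (chr4:156053905-156055750). miR-200c-3p had 1426 CPM (1.70-fold) and miR-141-3p 851 (1.82-fold), and theirs lie 336 bases apart on chromosome 6 (chr6:124717914-124718390). Of the 5, 3 were at least 4-fold above the median (7.89% of all names), with a median ratio of 5.25. Without brain, spinal cord and eye, kidney was above the median for 3 of 5 and by 4-fold for none.

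Summed, the chromosome 4 cluster had 24233 CPM in kidney, 7.31-fold above the median of 3316, and the chromosome 6 cluster had 2277 CPM, 1.85-fold above the median of 1231. Salivary gland and stomach held more of the whole family, 7.78% and 5.97% of reads against 2.65% in kidney. Kidney had the highest share from chromosome 4, 91.4% (91.1 to 91.7). Brain was next with 86.4% (85.7 to 87.0), followed by liver with 81.2% and stomach with 81.1%, and the median was 68.4%, with spleen lowest at 45.2%. This share is a ratio within a library and does not depend on its scaling. The 5p strands of the chromosome 4 cluster were in the same range, with miR-200b-5p 6.72-fold and miR-200a-5p 8.82-fold above the median.

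Of the remaining names far above the others, miR-190a-5p was the clearest. It lies in an intron of Tln2, the gene of the adhesion protein talin 2 (chr9:67236660-67236726), and had 3342 CPM in kidney. The others ran from 31.0 CPM in spleen through a median of 189 to 441 in brain and 908 in spinal cord, so kidney was 3.68-fold above spinal cord (3.49 to 3.89) and 17.6-fold above the median. Its 3p strand had 73.0 CPM in kidney and 37.5 in spinal cord. miR-190b-5p, which shares its seed, had 9.74 CPM in kidney and 580 in eye. miR-187-3p had 1041 CPM in kidney, 486 in brain and 271 in spinal cord, with a median of 125.

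miR-107-3p, from an intron of the pantothenate kinase gene Pank1 (chr19:34820687-34820773), had 6164 CPM in kidney and 3600 in testis, with a median of 1843. It differs from miR-103-3p by C22G alone. miR-103-3p had 9910 CPM in kidney, less than spinal cord, testis and brain. miR-107-3p was 38.3% of the reads of the pair in kidney (37.7 to 39.0), above all 11 others, which ran from 17.9% in smooth muscle to 35.4% in liver. miR-107-5p had 50.1 CPM in kidney and 33.8 in testis, where this is 5 reads, and miR-103-1-5p and miR-103-2-5p had 2.09 and 6.26 CPM in kidney.

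For miR-101c the value is uncertain. It had 178 CPM in kidney (256 reads) and 55.9 in lung. All of its 19 bases lie within the 21 bases of miR-101a-3p, which had 21506 CPM in kidney, also the highest of the 12, against 16834 in salivary gland. How reads that match both were counted is not given in the sources used here. miR-101a-5p, the other arm of that hairpin, was also highest in kidney, with 104 CPM against 69.6 in salivary gland, and at 0.90 times the highest other library under TMM. miR-455-5p and miR-455-3p, from an intron of the collagen gene Col27a1, had 228 and 1083 CPM in kidney, 1.39-fold and 1.35-fold above the highest others, liver and stomach, but 0.81 and 0.84 times the highest under TMM.

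Further names were high in kidney and in other organs. miR-874-3p had 246 CPM in kidney and 240 in brain, with a median of 20.3. miR-365-3p had 1804 CPM in kidney and 1374 in liver, and miR-193a-3p had 1108 in kidney and 2041 in liver. miR-802-5p had 236 CPM in kidney, against 2626 in smooth muscle, 1735 in liver and 829 in stomach, with a median of 33.8, so that kidney was 6.98-fold above it. These are the libraries that also led for miR-192-5p. That fold rests on the libraries near the median, since it was 1.55 without testis, 1.44 without spinal cord and 10.8 without smooth muscle. miR-221-3p, known as a regulator of p27 and KIT, had 7208 CPM in kidney and 5980 in brain, and miR-222-3p, beside it on the X chromosome, had 3480 in kidney and 6177 in brain. miR-221-3p was 4.06-fold above the median and 3.72-fold without smooth muscle, testis or spinal cord, in turn. miR-1247-5p had 88.3 CPM in kidney, 181 in eye and 44.5 in stomach, with a median of 6.94, and was 12.7-fold above the median (8.32-fold without smooth muscle, 8.25-fold without testis or without spinal cord).

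Where both arms of a hairpin were counted, they mostly stood alike. Of 148 hairpins with both strands compared, 13 had an arm at least 4-fold above the median of the others and 10 of these had both. Across 121 hairpins the log2 ratios of the arms had a Pearson r of 0.90, as a description across miRNAs that share libraries and depth.

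**Figure D3:**
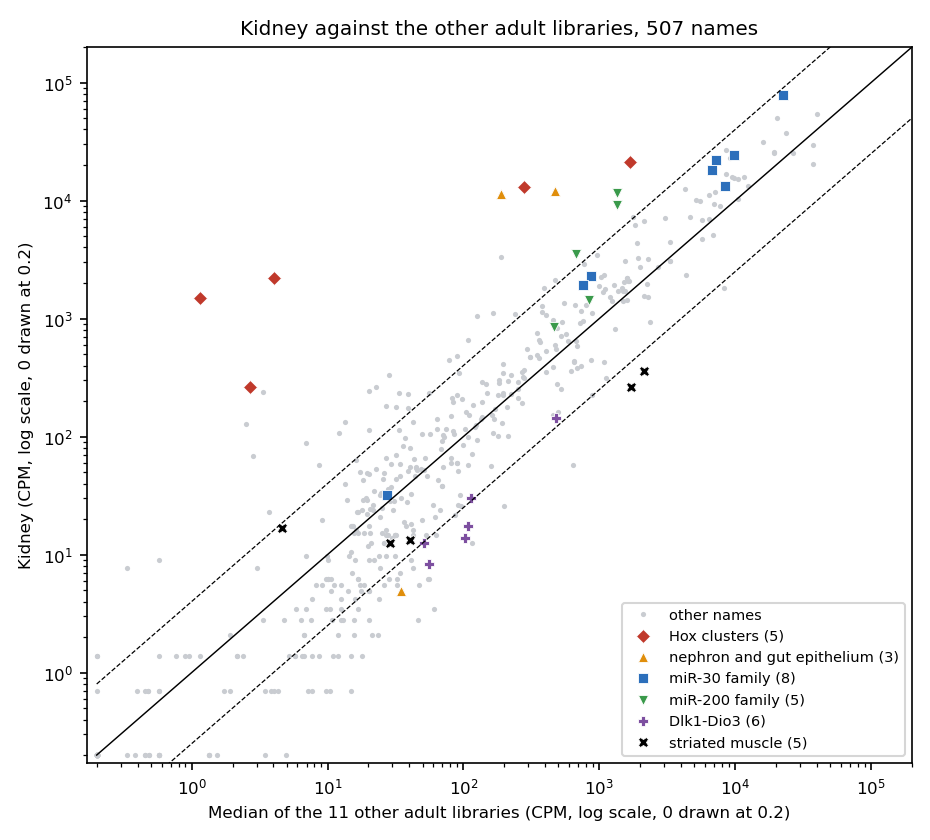
Level of each of 507 mature miRNAs in kidney (vertical axis) against the median of the 11 other adult libraries (horizontal axis), in CPM on log axes, with 0 drawn at 0.2. Coloured symbols mark the lists named in the key, grey points the other names, and lines equality and a 4-fold difference. The 5 Hox names lie above the 4-fold line, and the 8 miR-30 names between equality and that line.

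Names were also grouped by genome position, in 39 clusters of hairpins no more than 10 kb apart on 1 strand with at least 3 names tested. This grouping was chosen after the values were seen. On the X chromosome, the miR-322, miR-503, miR-351, miR-542 and miR-450a strands (mature sequences within chrX:53048206-53054327, minus strand) were above the median of the others for 7 of 7 names (47.9% of all names), by 2.58-fold to 6.57-fold, and 4 were at least 4-fold above (7.89%). miR-322-5p, a relative of miR-16 that acts on cell cycle mRNAs, had 2134 CPM in kidney, 3776 in testis, a median of 474 and 139 in brain. The summed cluster had 3478 CPM in kidney, 5903 in testis, 3972 in lung and a median of 734. Under TMM and DESeq2 size factors, 7 of 7 stayed above the median and 2 were at least 4-fold above. Without brain, spinal cord and eye, 7 of 7 were above and none by 4-fold.

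Another cluster of the X chromosome held miR-20b-5p and miR-106a-5p, members of the miR-17 seed family. They had 264 and 132 CPM in kidney, second to spleen with 389 and 211, and were 11.7-fold and 9.78-fold above the medians. These folds depended on the libraries and scale used. They were 10.2 and 6.77 without testis, 6.58 and 4.99 without brain, spinal cord and eye, and 17.8 and 13.3 under TMM. The 4 other names with that seed, miR-17-5p, miR-20a-5p, miR-93-5p and miR-106b-5p, come from other chromosomes and were only 1.24-fold to 1.62-fold above the median. The high ratios were those of the X-linked members of the seed family, not of the whole cluster. Its other names, miR-19b-3p and miR-92a-3p, are also names of the miR-17 cluster of chromosome 14, and miR-92a-3p was at 0.66 times the median. Summed, the X cluster was at 1.28 times the median. miR-20b-5p and miR-106a-5p are close in sequence to miR-20a-5p and miR-17-5p, whose levels were 2058 and 1791 CPM, so the split of reads between them is uncertain.

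Lists of markers of other cell types describe what else the kidney RNA held. Endothelial miR-126a-3p and miR-126a-5p had 26734 and 6735 CPM and were 3.12-fold and 3.17-fold above the median, and the pair held 3.35% of kidney reads, after lung (8.91%) and heart (5.76%). The red cell list (miR-451a, miR-144-3p, miR-144-5p and miR-486a-5p) held 5.53%, after lung (12.7%) and spleen (10.6%), with 4 of 4 names above the median (47.9% of all names). The leukocyte list held 0.466%, against 26.1% in spleen and a median of 0.719%. Smooth muscle miR-143-3p and miR-145a-5p held 3.09%, below the median of 4.82%, and the mesenchymal list (miR-199a and miR-214) 0.482%, against a median of 0.556%. The part of blood left in the vessels in these levels was not tested.

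Lists of markers of tissues foreign to the kidney were far below the library that led for each, but not all were below the median of the others. By summed reads the hepatocyte list was 6.22-fold and the neuronal list 2.05-fold above that median. The striated muscle list held 0.0665% of reads, lower than in 10 of the others, with miR-1a-3p at 358 CPM and miR-133a-3p at 265, against 174153 and 112141 in heart. Of its 5 names 1 was above the median of the others, miR-208a-3p, by 3.61-fold. This was 24 reads in kidney, at 0.003 times heart. Hepatocyte miR-122-5p had 658 CPM in kidney and 311546 in liver, and testis (2776), stomach (1830) and spleen also had more than kidney. It was 6.12-fold above the median of all others, but 0.79 times the median without brain, spinal cord and eye, so that its place among the 40 rests on those 3 libraries. The pancreatic list (miR-216a-5p, miR-216b-5p and miR-217-5p) had 2, 1 and 2 reads in kidney. Of the neuronal list, miR-124-3p had 85.6 CPM, 0.87 times the median (0.30 without smooth muscle), miR-128-3p had 387 CPM, 0.85 times it, and miR-9-5p had 1270 CPM, 3.36-fold above the median (2.20-fold without smooth muscle) and at 0.01 times brain. Stratified epithelium miR-205-5p had 483 CPM, against 22649 in stomach. It was 5.36-fold above the median, but 1.78-fold without smooth muscle and 1.62-fold without spinal cord, so that this call rests on either library.

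The let-7 family, which marks differentiated tissue, was at its highest in kidney by summed share of reads. Its 9 names held 15.7% of kidney reads, against 14.8% in brain, 14.4% in spinal cord, a median of 9.73% and 8.06% in smooth muscle. Of the 9, 8 were above the median (47.9% of all names), by 1.98-fold at most (let-7b-5p), and let-7i-5p was at 0.75 times it. Under TMM and DESeq2 size factors kidney ranked 5 and 4 of 12 for the sum, with 8 of 9 still above the median. Names of the cluster in introns of Clcn5, the chloride transporter gene mutated in Dent disease of the proximal tubule, were above the median for 8 of 8 with reads (47.9% of all names), by 1.32-fold to 2.20-fold, and 8 of 8 stayed above it under TMM and DESeq2 size factors. miR-188-5p and miR-532-5p of this cluster were highest in kidney, but with 69.6 against 69.3 CPM in spleen and 369 against 357 CPM in salivary gland.

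The names of the miR-23, miR-27 and miR-24 clusters were 1.10-fold to 1.74-fold above the median for 5 of 5 (47.9% of all names), and above it for 3 of 5 under TMM and under DESeq2 size factors. miR-204-5p, known from the eye and also studied in renal tubules, had 236 CPM in kidney, 1.58 times the median, against 33867 in eye. Its relative miR-211-5p had 2 reads in kidney. None of these names reached the 4-fold call.

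**Figure D4:**
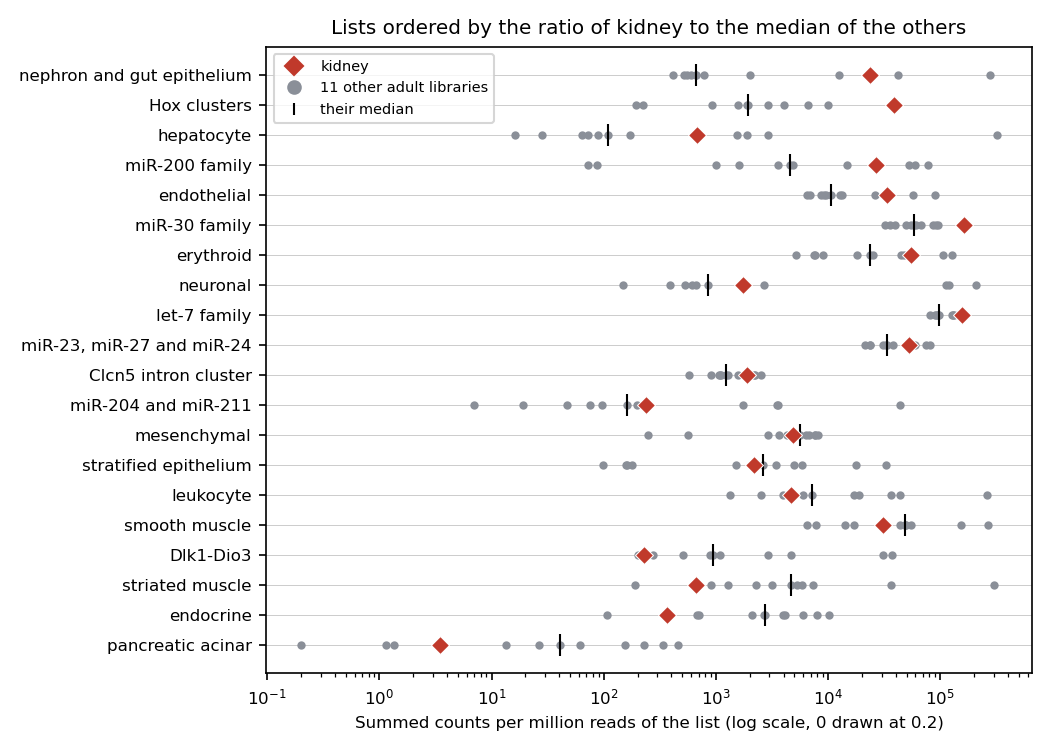
Summed level of each list of miRNAs in CPM on a log axis (0 drawn at 0.2), with kidney as red diamonds, the 11 other adult libraries as grey points and their median as a black bar. Lists are ordered by the ratio of kidney to that median. Kidney is the highest library for the Hox, miR-30 and let-7 lists, at 3.84%, 16.2% and 15.7% of reads (under TMM it ranked 1, 2 and 5), and among the lowest for the endocrine, striated muscle and Dlk1-Dio3 lists.

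On the low side, the largest group was the imprinted Dlk1-Dio3 region of chromosome 12, which is active in the brain and embryo. All 6 names of the Dlk1-Dio3 list were below the median of the others (47.9% of all names were above it), with a median ratio of 0.203. Of the 6, 4 were at least 4-fold below it (8.68% of all names), and kidney was the lowest of 12 for 3 (4.73%). miR-127-3p, which is antisense to the retrotransposon-derived gene Rtl1, had 144 CPM in kidney, a median of 479, and 20658 in spinal cord. miR-411-5p had 13.9 CPM in kidney, 21.6 in spleen as the next lowest, and a median of 103. miR-541-5p had 17.4 CPM in kidney, 22.9 in spleen and a median of 108, and miR-382-5p had 8.35, 9.79 in liver and 56.1.

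The cluster from Mir379 to Mir410 (mature sequences within chr12:109709065-109743784, plus strand) shows this in full. Of its 36 names tested, 36 were below the median of the others, whereas 47.9% of all names were above it. Of the 36, 16 were at least 4-fold below it (against 8.68% of all names), and kidney was the lowest library for 14 (against 4.73%). Summed, it had 243 CPM in kidney, the lowest of the 12, then 260 in spleen, 335 in liver and 358 in lung, a median of 1174 and 29232 in spinal cord. The neighbouring cluster from Mir337 to Mir136 (chr12:109585818-109595387) was below the median for 13 of 13 names (47.9% of all names were above it). Of these 13, only 3 were at least 4-fold below it (8.68% of all names), and kidney was the lowest library for 3 (4.73%). Its sum was 275 CPM in kidney, 229 in liver and 273 in spleen. Kidney thus stood with spleen, liver and lung at the low end. Under TMM and DESeq2 size factors 36 of 36 stayed below the median, with 19 at least 4-fold below under each. Those scalings lowered kidney over all names, moving the median log2 ratio by -0.33 and -0.26. Of all names, 63 of 488 and 58 of 493 were then at least 4-fold below, against 44 of 507 in the main setting. Without brain, spinal cord and eye, the summed Mir379 to Mir410 cluster was still lowest in kidney, at 0.33 times the median, with 33 of 36 below it and 4 by 4-fold.

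The 10 names farthest below the median were led by miR-129-5p (17.5-fold) and miR-135b-5p (16.7-fold), then miR-329-3p (11.3-fold), miR-375-3p (11.1-fold), miR-298-5p (10.1-fold), miR-129-2-3p (9.18-fold), miR-153-3p (8.93-fold), miR-342-5p (8.82-fold), miR-490-3p (8.55-fold) and miR-381-3p (8.53-fold). All but miR-375-3p and miR-129-2-3p had 9 reads or fewer in kidney. Kidney was the lowest library for miR-329-3p, miR-298-5p, miR-342-5p and miR-381-3p. Leaving out 1 library moved some of these folds: miR-129-5p was 27.98-fold and miR-129-2-3p 14.0-fold below the median without smooth muscle, miR-490-3p was 24.1-fold below it without testis, and without testis or without spinal cord miR-135b-5p was 9.73-fold and miR-129-2-3p 5.91-fold below it. miR-375-3p, of endocrine and secretory epithelium, had 57.0 CPM in kidney (82 reads), against 9296 in salivary gland, 6248 in smooth muscle, a median of 635 and 1.53 in heart. Without brain, spinal cord and eye, miR-135b-5p (2.52-fold) and miR-129-2-3p (1.64-fold) were no longer 4-fold below the median. miR-148a-3p, which led salivary gland with 116001 CPM, had 1819 CPM in kidney against a median of 8313.

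Arm usage in kidney was close to that of other organs for the hairpins that could be compared. The 5p share, the 5p reads as a percent of both arms, could be compared for 189 hairpins with at least 20 reads in kidney and in at least 6 others. Arms were paired only where the 5p and 3p names were otherwise the same. Names with 3p strands numbered by hairpin, such as miR-30c, miR-194 and miR-196a, were therefore left out, among them the most abundant kidney miRNA, miR-30c-5p. Of the 189, the 5p arm led in 99 and the 3p arm in 83, with 7 undecided by their interval. No hairpin with a decided arm was led by another arm than in most of the others. Among the undecided, miR-501 had a 5p share of 47.3%, where the 5p arm led in 6 of 11 others. For miR-376b it was 56.0%, where the 5p arm led in 4 of 10. The kidney share was within 1 point of the median of the others for 115 hairpins and within 5 points for 160, with a median absolute difference of 0.595 points. It lay outside the range of the others for 20 hairpins (10.6%), above for 10 and below for 10. The miR-10a, miR-192 and miR-30a hairpins, high in kidney, had 98.5%, 97.96% and 91.4% of reads from the 5p arm, against medians of 98.3%, 98.2% and 91.8%.

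The interval of the kidney share lay beyond those of all others for 1 hairpin (0.529%), miR-143, the smooth muscle miRNA. Its 5p arm gave 1.21% of reads in kidney (1.09 to 1.34, 29898 reads), against 0.33% in spinal cord as the lowest, a median of 0.72%, and 0.90% in liver and 0.93% in smooth muscle (0.89 to 0.98) as the highest. This is 362 reads of the minor strand. It stayed beyond all others without the smooth muscle library. It was no longer beyond all others with 99% intervals or with the embryo libraries added.

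The largest difference below the median was in miR-361, from an intron of Chm on the X chromosome (chrX:113074824-113074893). Its 5p share was 65.5% in kidney (61.6 to 69.3, 609 reads). The others ran from 72.3% in stomach (68.9 to 75.6) through a median of 77.9% to 86.5% in testis, so that kidney was the lowest, with a difference from the median of -12.4 points and an interval that overlapped that of stomach alone. miR-361-5p had 278 CPM in kidney, the lowest of the 12, against a median of 488, while miR-361-3p had 146 CPM against a median of 138. miR-15b, with 94.9% (94.1 to 95.7), and miR-345, with 82.1% (79.7 to 84.3), were also below the range of the others, whose lowest were 96.1% in spinal cord and 83.7% in testis.

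The other large differences rested on fewer reads or lay within the range. miR-34b had a 5p share of 70.6% in kidney (61.2 to 79.0, 109 reads), 13.2 points above the median, with the others from 38.7% upward. miR-376a (18.2%, 22 reads) and miR-376b (56.0%, 25 reads) were 10.4 and 9.01 points above the median, miR-708 (92.6%, 188 reads) and miR-542 (38.5%, 117 reads) 8.86 and 8.64 points above it. Below the median were miR-669a (17.3%), miR-503 (78.7%), miR-1843a (77.5%) and miR-199b (11.5%), with differences of -9.22, -8.80, -8.29 and -7.81 points, all within the range of the others.

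**Figure D5:**
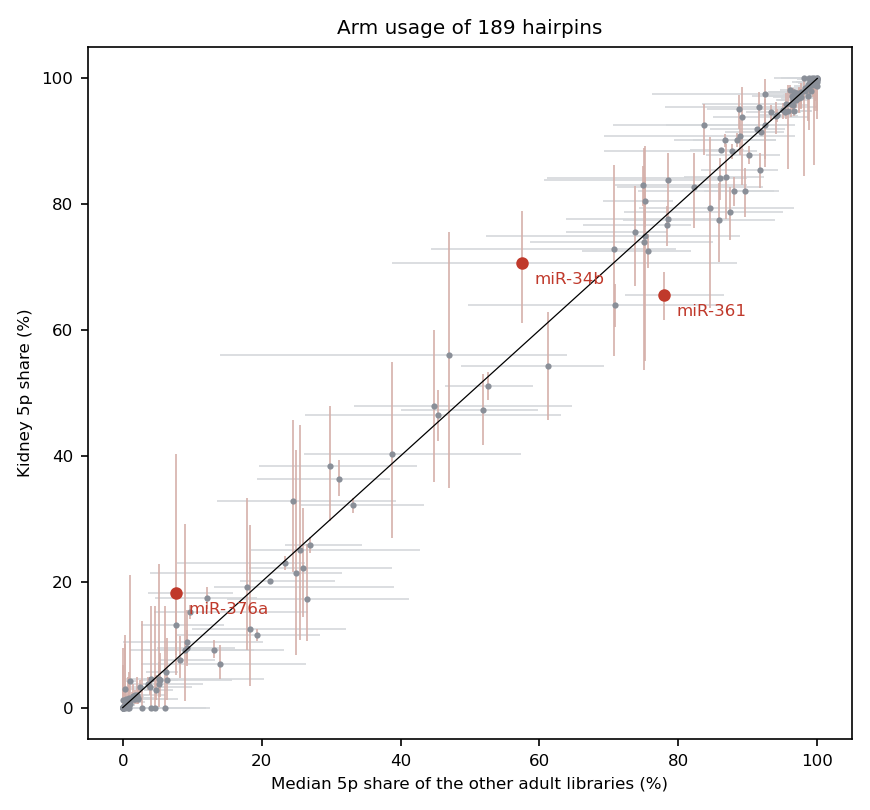
The 5p share of 189 hairpins in kidney (vertical axis, percent of 5p and 3p reads) against the median of the other adult libraries (horizontal axis), with the line of equality. Each point is a hairpin, grey horizontal lines span the lowest to the highest other library, vertical lines are the 95% intervals of kidney (counting error only), and miR-361, miR-34b and miR-376a are labelled. Most hairpins lie within 5 points of the line, and miR-361 and miR-34b differ from the median of the others by -12.4 and 13.2 points.

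Over all 507 names, the kidney profile was most like lung, salivary gland and liver. The Pearson r of log2(CPM + 5) across names, a description with no test, was 0.919 with lung, 0.909 with salivary gland, 0.908 with liver and 0.886 with spleen. It was 0.638 with spinal cord, 0.613 with brain and 0.536 with testis. Spinal cord, the library nearest to kidney in the level of Hox cluster miRNAs, was thus among the least like it over all names.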

How the data were processed

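Small RNA of mouse tissues was sequenced in 15 libraries, 1 per tissue or embryo stage, and samples were grouped by title. Each deposited file lists mature miRNA names with their read counts. Per the submitters' processing notes, the authors worked on mm10 with bedtools, BWA, cutadapt and bcl2fastq 1.8.4. What each tool did, with which options and miRNA annotation, and how reads that match several loci were counted, is not given in the sources used here. The split counts of near-identical miRNAs are therefore uncertain. Names not listed in a file were taken as 0, and names are printed without the species prefix.

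Counts were divided by the total of the file to give CPM, with Python 3.11.15, numpy 2.4.6, pandas 2.3.3, scipy 1.17.1 and matplotlib 3.10.9. Names with a mean of at least 20 CPM over the 12 adult libraries were compared. Kidney was set against the highest other adult library (fold of 2) and the median of the others (fold of 4), with a median below 3 reads raised to 3 reads, and a kidney count below 3 to 3. Intervals of ratios and shares are exact (Clopper-Pearson, 95%). No test across names was made, since each tissue has 1 library. The counting rules were tested on simulated data. Alternatives were TMM factors (edgeR 4.0.16) and size factors (DESeq2 1.42.0) in R 4.3.3, totals without the top name, other minimums and folds, and libraries left out or added.

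The miRNAs named are the 10 highest in kidney, the 15 with the highest ratios to the highest other library and to the median, the 10 lowest to the median, hairpins whose 5p share lay beyond all others or differed most (5 each way), and members of 20 lists. The kidney markers miR-30c-5p, miR-10a-5p, miR-192-5p and miR-194-5p were given with the choice of this library. Members and lists were chosen with earlier results of these data known, and other names were chosen after their values were seen. Loci are from the annotation of GRCm38, the same assembly as mm10, 1-based. Spike-in RNAs described in the labels were not analysed here.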

Additional observations from a re-analysis of the deposited data

How the results depend on the processing

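The 1 library per tissue and its depth set the limits: a name with fewer than 3 reads in kidney is not detectable below 2.09 CPM, and testis, with 148052 reads, resolves 20.3 CPM. No paired analysis was possible because no tissue has a second library. The count of 8 names at least 2-fold above the highest other library was 20 with no minimum level and 5 with embryos added. The count of 40 names above the median was 26 with a mean of at least 100 CPM, 63 with no minimum level and 91 with a fold of at least 2. The count of 44 names below the median was 26 with a mean of at least 100 CPM, 23 without brain, spinal cord and eye, 93 with embryos added and 113 with a fold of at least 2. The cause was not tested, beyond the names or libraries each setting adds or removes. Other settings stayed within 1.5 times the main counts: they gave 6 to 11, 29 to 40 and 37 to 63, and without the smooth muscle library the counts were 8, 37 and 57.

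The hairpin beyond all others in 5p share, miR-143, was lost with 99% intervals (0 hairpins) and with embryos added (0), and without brain, spinal cord and eye there were 2, miR-143 and miR-15b. Of the single ratios that passed a fold of 2 over the highest library or 4 from the median, 5 crossed 1. Without brain, spinal cord and eye, miR-122-5p and miR-122-3p were at 0.79 and 0.996 times the median. With embryos added, miR-196a-5p and miR-196b-5p were at 0.84 and 0.77 times the highest library. miR-205-5p was then at 0.60 times the median.
Ratios short of these folds crossed 1 more often, such as that of miR-365-3p to the highest library (1.31, and 0.76 under TMM).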
